A study of Sus scrofa with 35 samples.

Results

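The proteasome subunits and assembly factors of pig whole blood were described with 101 probes of 41 genes, out of 39072 probes and 8601 genes with a current symbol in the authors' table of log2 values. A probe was a member when its gene name in the scanner files began with PSMA, PSMB, PSMC, PSMD, PSME, PSMF or PSMG. The inducible catalytic subunits PSMB8, PSMB9 and PSMB10 were left out of the members. On the array itself, 105 of 60305 probes and 43 genes met this rule. PSMC3IP, with 2 probes, met it by name, but its protein takes part in meiotic recombination and is no proteasome subunit. No probe carried the names PSMA1, PSMA7 or PSMA8, so the outer ring of the core is covered in part only.

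Blood had been drawn into PAXgene tubes from 35 castrated male pigs, and the RNA of each pig was measured on 1 one-colour array. The pigs were Creole (CR), Large White (LW) or their cross (F1), and had entered a climatic room at 11 weeks of age. Thermoneutral (TN) pigs were kept at 24 °C, and heat-stressed (HS) pigs had been moved from there to a hot room temperature that the sample labels give as 30 °C and the protocol text as 32 °C for 5 d. CR TN held 5 pigs, and CR HS, F1 TN, F1 HS, LW TN and LW HS held 6 pigs each. The TN pigs were slaughtered before the temperature was raised, so climate cannot be told apart from the day of slaughter or from age. By the paper, some HS pigs were slaughtered before the full 5 d, and HS pigs ate less than before the heat. Lower feed intake cannot be told apart from climate either. Pens held pigs of 1 breed, littermates were spread over pens, and the labels name neither pen nor litter. The tests below therefore treat the pigs as independent, and their SE and p-values may be too small.

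The proteasome is the main protease of the cytosol and nucleus, and it degrades proteins that carry chains of ubiquitin. Its core particle is a barrel of stacked rings, in which alpha subunits (PSMA) form the gated entrance and beta subunits (PSMB) hold the proteolytic sites. A regulatory cap recognises the ubiquitin chain, removes it with its lid and unfolds the substrate with a ring of ATPases (PSMC). Dedicated chaperones (PSMG and some PSMD proteins) put these parts together, and other activators (PSME) or the inhibitor PSMF1 can bind the core in place of the cap. In blood, red cell precursors rely on it while they remove their organelles, and white cells use it to make peptides for antigen presentation.

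Values below are log2 intensity, and differences are log2 differences estimated with limma, adjusted by the Benjamini-Hochberg method over all 39072 probes and called at an adjusted p under 0.05. The level of a gene is that of its brightest member probe, and levels are not compared between genes, because probes differ in their binding. Of the blood cell lists, that of erythroid genes moved most with climate, with a median difference of -0.73. In HS, 10 of its 18 measured genes were called lower and 1, SLC4A1, higher at 0.27. Over all probes, 14.7% were called lower and 20.1% higher. The mean of that list ran from 9.83 to 11.72 in F1 TN and from 8.54 to 10.14 in F1 HS, with narrower shifts in CR (9.53 to 10.81 in TN, 9.03 to 10.61 in HS) and LW (up to 10.77 in TN, 9.52 to 10.44 in HS). HBB and AHSP, the defining globin and globin chaperone, differed by -0.13 and -0.05 and were not called. They were the brightest of the measured list genes, at mean levels of 17.44 and 17.76. Whether probes this bright can show a fall was not tested. Of the other lists, 0 of 4 platelet and 0 of 7 neutrophil genes were called, 2 of 5 monocyte, 2 of 6 T cell and 3 of 5 B cell genes were higher, and 1 of 5 cytotoxic genes was lower. The same shares of all probes, 20.1% higher and 14.7% lower, stand beside these small lists. The part of these cell types in the results was not tested beyond the erythroid values given below. In whole blood, fewer cells of a type and less RNA in each cell cannot be told apart.

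When breeds were analysed together, 17 of the 41 proteasome genes were called higher in HS than in TN pigs (41.5%) and 5 lower (12.2%), against 20.1% of all probes higher and 14.7% lower. With genes averaged over all their probes, 16 of the 41 member genes were called higher and 4 lower. On that measure the shares of the whole array were 24.4% higher and 16.5% lower. The median difference of the 41 genes was 0.16, and that of all probes was 0.06. Counted by probes, 43 of 101 were called higher and 7 lower. The 17 genes were PSMA4 in the alpha ring, PSMB1, PSMB2, PSMB3, PSMB4 and PSMB7 in the beta ring, PSMC1, PSMC2 and PSMC5 in the ATPase ring, PSMD1, PSMD2, PSMD8, PSMD11 and PSMD13 in the rest of the cap, the chaperone PSMG4, and the activators PSME1 and PSME2. The 5 lower genes were PSMD3 and PSMD4 of the cap, the chaperone PSMG1, the activator PSME4 and the inhibitor PSMF1. PSMD3, PSME4 and PSMF1 each rest on a single probe of the authors' table, and the strand that the probes read was not settled from the files. The letters of the PSMD3 probe look like the reverse complement of coding sequence, so its call may not mean less messenger RNA. The calls also rest on the F1 pigs: without them 0 of 101 member probes and 0 of 39072 probes were called by limma, 21 member probes had an unadjusted p under 0.05 (17.5% over all probes), and the median of the 41 genes was 0.07 against 0.02 for all probes.

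**Figure D1:**
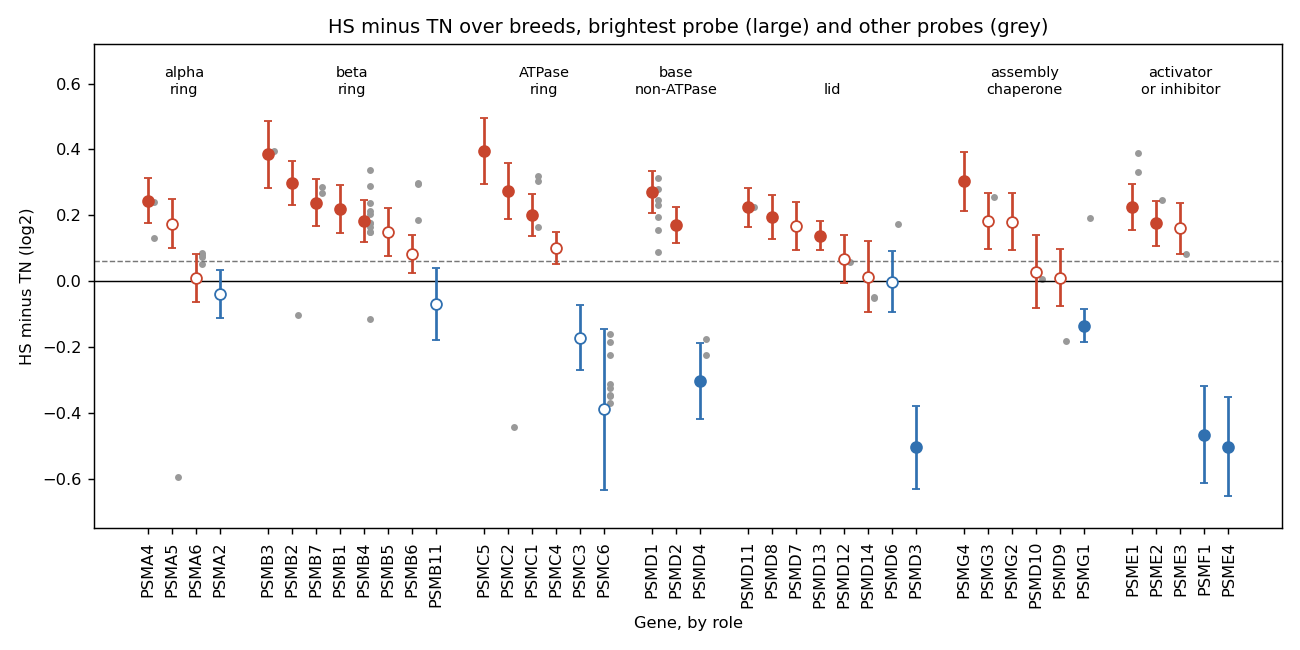
HS minus TN in log2 units over breeds for 40 proteasome genes grouped by role, as the brightest probe (large point, with its SE) and the other probes of the gene (grey); red is higher and blue lower in HS, filled points passed the threshold, and the dashed line is the median of all probes at 0.06. All filled points of the beta ring are above 0, and the lowest brightest probes are PSMD3, PSME4 and PSMF1.

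In the alpha ring, 1 of 4 measured genes was called higher and none lower, against 20.1% of all probes higher and 14.7% lower. PSMA4 ranged from 9.45 to 9.94 (median 9.64) in F1 TN and from 9.84 to 10.31 (median 10.06) in F1 HS, so that the groups overlapped only between 9.84 and 9.94, and its difference over breeds was 0.24 ± 0.07 (SE), adjusted p = 0.00764. Another of its 3 probes was called at 0.24, and the remaining one was at 0.13 and was not called. PSMA6 was not called on any of its 5 probes, which ran from 0.01 to 0.08, and PSMA2 was at -0.04 ± 0.07. PSMA5, whose probes go opposite ways, is described below.

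Over breeds the beta ring moved most evenly: 5 of 8 genes and 19 of 26 probes were called higher, and none was called lower. The shares of all probes were 20.1% higher and 14.7% lower. Within F1, 17 of the 26 probes were called higher and 1 lower, against 20.8% and 17.9% of all probes. PSMB2, a structural beta subunit, lay at 10.96 to 11.45 (median 11.18) in F1 TN and 11.52 to 11.89 (median 11.82) in F1 HS. The CR pigs were at 11.26, 11.42, 11.45, 11.53 and 11.53 in TN and 11.30 to 11.84 (median 11.64) in HS, and the LW pigs at 11.18 to 11.62 (median 11.39) in TN and 11.40 to 11.72 (median 11.50) in HS. Every F1 HS pig was thus above every F1 TN pig, while the groups of the other breeds overlapped, and 17 of 18 HS pigs were above the TN mean of their breed. The difference of PSMB2 over breeds was 0.30 ± 0.07 (SE), adjusted p = 0.00198, or 1.23-fold.

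PSMB3, another structural subunit, had the largest difference of the ring, at 0.39 ± 0.10 (SE), adjusted p = 0.00517, and its second probe gave 0.40. Its level was 8.85 to 9.59 (median 8.93) in F1 TN and 9.25 to 9.78 (median 9.39) in F1 HS, 8.91, 8.92, 9.20, 9.59 and 9.70 in CR TN, 8.83 to 10.19 (median 9.95) in CR HS, 8.87 to 9.14 (median 9.04) in LW TN and 9.03 to 9.62 (median 9.30) in LW HS. The CR HS pigs split widely, with 1 pig below all CR TN pigs and the median above them. PSMB4 carried 12 probes, of which 9 were called higher and 11 were above 0, and the brightest was at 0.18 ± 0.06 (SE), adjusted p = 0.0252. Several of these 12 probes overlap in sequence, by up to 55 of their 60 bases, and do not count as separate measurements.

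The 3 constitutive catalytic subunits were not called alike by their brightest probes. PSMB7, which holds the trypsin-like site, was at 0.24 ± 0.07 (SE), adjusted p = 0.0121, with all 3 of its probes called. It lay at 10.60 to 10.95 (median 10.80) in F1 TN, 10.80 to 11.34 (median 11.14) in F1 HS, a median of 10.84 in LW TN, 10.72 to 11.24 (median 11.02) in LW HS, 10.62, 10.65, 10.66, 10.95 and 11.14 in CR TN and 10.44 to 11.30 (median 11.12) in CR HS, and TN and HS overlapped in each breed. PSMB6, with the caspase-like site, was at 0.08 ± 0.06 (SE), adjusted p = 0.252 on its brightest probe, whereas its 3 other probes were called at 0.29, 0.30 and 0.19. PSMB5, with the chymotrypsin-like site, had 1 named probe, at 0.15 ± 0.07 (SE), adjusted p = 0.11. Levels of PSMB5 ran from 6.96 to 7.78 in F1 TN and from 7.29 to 7.75 in F1 HS. PSMB11, the thymus-specific counterpart of PSMB5, was dim (mean 6.15) and at -0.07 ± 0.11.

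In the ATPase ring, which unfolds substrates, 3 of 6 genes were called higher and none lower, against 20.1% and 14.7% of all probes. PSMC5 had the largest rise of all 41 genes, at 0.40 ± 0.10 (SE), adjusted p = 0.00417, or 1.32-fold. It lay at 8.54 to 9.61 (median 9.42) in F1 TN, 9.61 to 9.94 (median 9.76) in F1 HS, 9.06, 9.09, 9.25, 9.26 and 9.60 in CR TN, 9.19 to 9.99 (median 9.70) in CR HS, 9.12 to 9.74 (median 9.51) in LW TN and 9.28 to 10.07 (median 9.66) in LW HS. The F1 groups touched, and 16 of 18 HS pigs were above the TN mean of their breed. PSMC1 was at 0.20 ± 0.06 with 3 of 4 probes called, and PSMC4 was at 0.10 ± 0.05 and not called. PSMC3 was at -0.17 ± 0.10 over breeds, and within F1 it was called lower at -0.51 ± 0.15 (SE), adjusted p = 0.0105, with 12.01 to 12.95 in F1 TN and 11.69 to 12.28 in F1 HS.

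PSMC6 differed from the other ATPases in how much pigs of one group varied. All 9 of its probes were lower in HS, from -0.16 to -0.39, yet none was called, and its brightest probe was at -0.39 ± 0.25 (SE), adjusted p = 0.212. The F1 TN pigs lay at 7.02, 7.33, 7.92, 9.14, 9.50 and 9.74, and the F1 HS pigs at 7.42, 8.06, 8.19, 8.21, 8.26 and 8.42. In LW TN the pigs lay at 7.38, 7.94, 8.50, 9.36, 9.38 and 10.20, and in LW HS at 7.65, 7.87, 8.02, 8.18, 8.19 and 9.63. CR pigs lay at 7.82, 7.95, 8.65, 9.02 and 9.12 in TN and 7.77, 7.87, 8.11, 8.24, 8.31 and 9.16 in HS. In F1 TN, 3 pigs were above 9 and the others below 8, whereas HS pigs were close together in each breed apart from 1 high pig in CR, 1 high pig in LW and 1 low pig in F1. Over the 35 pigs the level spanned 9.02-fold, and the SD within groups was 0.99 in TN and 0.54 in HS. This spread was larger than that of 98.2% of all probes, and the difference in spread between climates was not tested. The probes rose and fell together, with Pearson r of 0.81 to 0.99 between probes over the 35 pigs, which share their arrays and in part their bases.

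**Figure D2:**
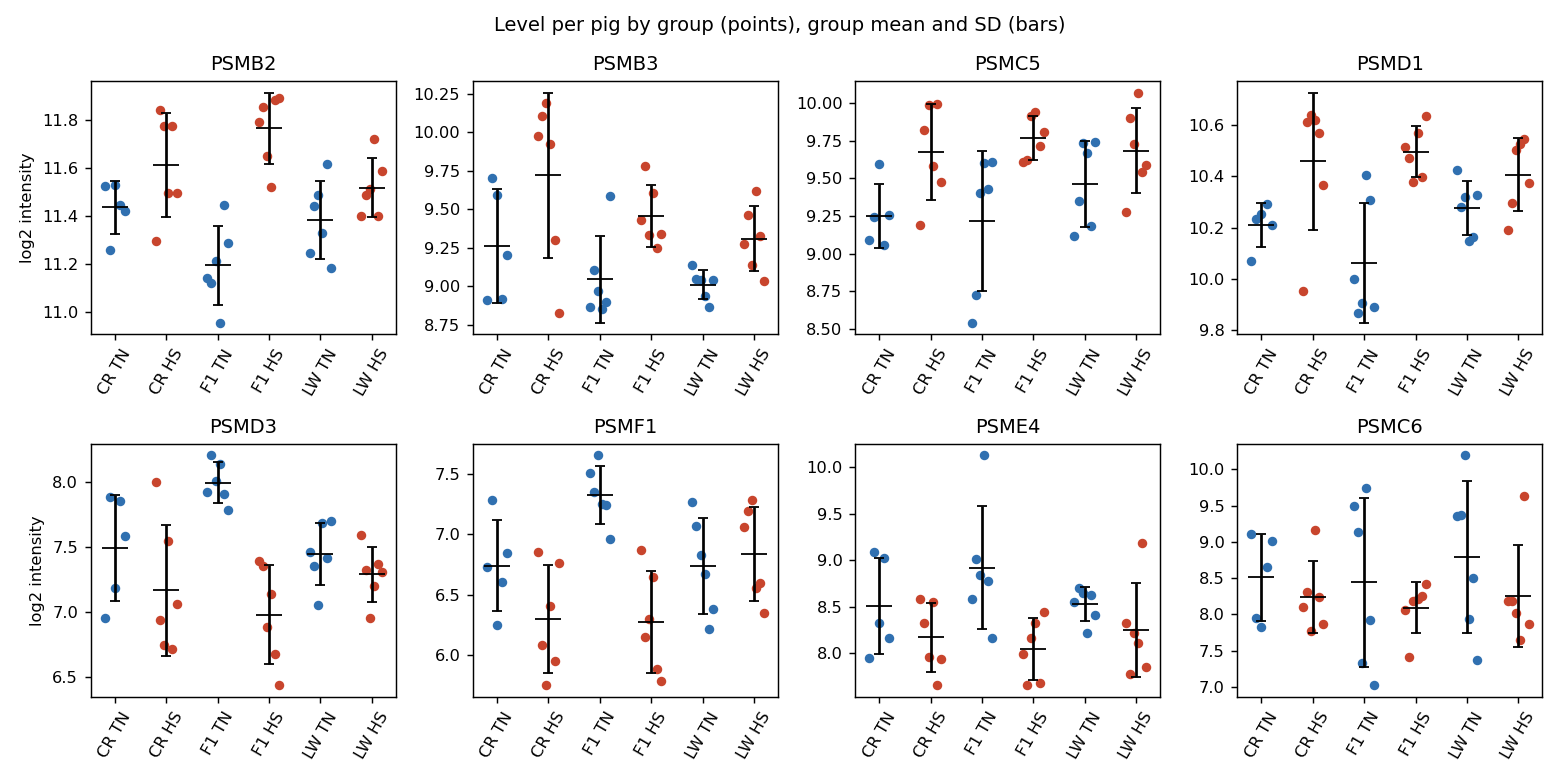
Level (log2 intensity) of 8 proteasome genes in each of 35 pigs, by breed and climate (TN blue, HS red), with group mean and SD as bars; the axes do not start at 0. PSMB2 of F1 HS lies above F1 TN in every pig, PSMD3 and PSMF1 of F1 HS lie below F1 TN in every pig, and PSMC6 is widely spread in TN pigs.

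Among the other base subunits, PSMD1, a scaffold of the cap, was called higher on 6 of 8 probes. Its brightest probe lay at 9.87 to 10.40 (median 9.95) in F1 TN, 10.38 to 10.64 (median 10.49) in F1 HS, 10.07, 10.21, 10.23, 10.25 and 10.29 in CR TN, 9.95 to 10.64 (median 10.59) in CR HS, 10.15 to 10.42 (median 10.30) in LW TN and 10.19 to 10.54 (median 10.44) in LW HS. TN and HS overlapped in every breed, and the difference over breeds was 0.27 ± 0.06 (SE), adjusted p = 0.0028. On a second PSMD1 probe (A_72_P073866) all 18 HS pigs were above the TN mean of their breed, at 0.25 ± 0.05 (SE), adjusted p = 0.00168. PSMD2, the second scaffold, was at 0.17 ± 0.06 (SE), adjusted p = 0.0175. PSMD4, a receptor for ubiquitin chains, went the other way at -0.30 ± 0.12 (SE), adjusted p = 0.0401. It lay at 11.44 to 12.95 (median 11.85) in F1 TN, 11.09 to 11.69 (median 11.38) in F1 HS, 10.93 to 12.06 in CR TN, 11.08 to 11.74 in CR HS, 11.21 to 12.01 in LW TN and 11.49 to 11.98 in LW HS, and TN and HS overlapped in each breed. Its other probes were at -0.22 and -0.18 and were not called. The call of PSMD4 did not hold when any of 13 single arrays was left out, with adjusted p of up to 0.0708.

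In the lid, which removes ubiquitin, 3 of 8 genes were called higher and PSMD3 lower, against 20.1% and 14.7% of all probes. PSMD11 was at 0.22 ± 0.06 (SE), adjusted p = 0.00539, and at 0.23 on its second probe, and PSMD8 at 0.19 ± 0.07 (SE), adjusted p = 0.0249. PSMD13 was at 0.14 ± 0.04. PSMD14, the deubiquitinating subunit, was near 0 on 3 probes, from -0.05 to 0.01. Of these, A_72_P471483 and O12176 have the same letters and count as a single probe measured again. PSMD6, PSMD7 and PSMD12 were not called. PSMD3, a scaffold of the lid, was read by 1 probe alone, whose strand was not settled against a transcript. The letters of that probe look like the reverse complement of coding sequence, so its values may not stand for the messenger RNA. On this probe PSMD3 lay at 7.78, 7.91, 7.92, 8.00, 8.13 and 8.20 in F1 TN and at 6.43, 6.68, 6.88, 7.13, 7.35 and 7.39 in F1 HS. All F1 HS pigs were below all F1 TN pigs. The levels were 6.95, 7.18, 7.58, 7.85 and 7.88 in CR TN, 6.72 to 7.99 in CR HS, 7.05 to 7.70 (median 7.44) in LW TN and 6.95 to 7.59 (median 7.31) in LW HS, where the groups overlapped. The difference of PSMD3 was -0.50 ± 0.13 (SE), adjusted p = 0.00369 over breeds and -1.01 ± 0.19 (SE), adjusted p = 0.000289 within F1.

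Of 6 measured assembly chaperones, PSMG4 was called higher and PSMG1 lower, against 20.1% of all probes higher and 14.7% lower. Calls among the chaperones were thus about as frequent as on the array. PSMG4, which with PSMG3 guides the alpha ring, lay at 10.59 to 11.08 (median 10.88) in F1 TN, 10.96 to 11.41 (median 11.28) in F1 HS, 10.42, 10.71, 10.72, 10.85 and 11.13 in CR TN, 10.04 to 11.33 (median 11.10) in CR HS, 10.66 to 11.14 (median 10.93) in LW TN and 11.08 to 11.70 (median 11.27) in LW HS, and was at 0.30 ± 0.09 (SE), adjusted p = 0.0102. PSMG3 at 0.18 ± 0.08 and PSMG2 at 0.18 ± 0.09 were not called. PSMG1, the partner of PSMG2, was at -0.14 ± 0.05 (SE), adjusted p = 0.0373 on its brightest probe, a call that was lost without any of 10 single arrays (adjusted p of up to 0.0623), and at 0.19 ± 0.08 (SE), adjusted p = 0.0634 on its other one. The chaperones of the cap, PSMD9 and PSMD10, were at 0.01 and 0.03. For PSMD5, the third of these chaperones, the array had 1 probe, which was not in the authors' table and was well above background on 0 of 35 arrays. PSMA3 also had 1 probe, which was not in the table and was well above background on 3 arrays.

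The activators split by kind. PSME1 and PSME2, which form the ring that interferon induces, were called higher on all 5 of their probes, from 0.18 to 0.39. PSME1 lay at 11.46 to 12.01 (median 11.93) in F1 TN, 12.04 to 12.40 (median 12.17) in F1 HS, 11.74, 11.95, 11.96, 12.05 and 12.25 in CR TN, 11.70 to 12.32 (median 12.20) in CR HS, 11.70 to 12.15 in LW TN and 11.86 to 12.41 (median 12.14) in LW HS, and the F1 groups did not overlap. Its difference was 0.22 ± 0.07 (SE), adjusted p = 0.0132. PSME3, the nuclear activator, was at 0.16 ± 0.08 and not called. PSME4, which binds the core in nuclei and during spermatogenesis, lay at 8.17 to 10.13 (median 8.81) in F1 TN, 7.67 to 8.45 (median 8.08) in F1 HS, 7.95, 8.16, 8.33, 9.02 and 9.09 in CR TN, 7.66 to 8.59 (median 8.15) in CR HS, 8.22 to 8.71 (median 8.59) in LW TN and 7.78 to 9.18 (median 8.17) in LW HS. All breeds overlapped between climates for PSME4, and its difference was -0.50 ± 0.15 (SE), adjusted p = 0.0108.

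PSMF1, an inhibitor of the core, was represented by 1 probe. Its level was 6.96, 7.24, 7.25, 7.35, 7.50 and 7.65 in F1 TN and 5.79, 5.88, 6.14, 6.30, 6.64 and 6.87 in F1 HS, without overlap. It was 6.25, 6.60, 6.73, 6.84 and 7.29 in CR TN, 5.75 to 6.85 (median 6.24) in CR HS, 6.22 to 7.27 (median 6.75) in LW TN and 6.35 to 7.29 (median 6.82) in LW HS. The LW medians were thus level with each other while those of CR and F1 were lower in HS. The difference was -0.47 ± 0.15 (SE), adjusted p = 0.0151 over breeds, -1.06 ± 0.21 within F1, -0.44 ± 0.23 within CR and 0.10 ± 0.21 within LW. The test of a breed by climate interaction gave an adjusted p of 0.278 for PSMF1, so a difference in its response between breeds was not shown.

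Within breeds, the differences were called in F1 pigs alone, and no difference between breeds in the response was called. In F1 pigs 15 of 41 genes were called higher (36.6%) and 6 lower (14.6%), against 20.8% and 17.9% of all probes (38.7% in either direction), and the median was 0.25 against 0.13 for all probes. In CR pigs 0 of 101 member probes were called, and 9 had an unadjusted p under 0.05 (8.87% over all probes). In LW pigs the count was also 0 of 101, with 9 at an unadjusted p under 0.05 (8.71% over all probes). For both breeds 0 probes of the array were called, which is 0% of it. The medians of the 41 genes were 0.07 in CR and 0.08 in LW, against 0.03 and 0.01 for all probes. The limma test of interaction called 0 of 101 member probes and 0% of all probes. For it, 14 member probes had an unadjusted p under 0.05 (14.9% over all probes), and the smallest adjusted p was 0.278.

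In all 3 breeds 21 of 41 genes were above 0 (51.2%, against 34.4% of all probes) and 5 were below 0 (12.2%, against 22.2%). In F1, the HS and TN pigs did not overlap for 3 genes with HS above TN, PSMB1, PSMB2 and PSME1, and for 2 with HS below TN, PSMD3 and PSMF1. Over the whole array, 3.59% of probes were apart with HS above and 8.08% with HS below. No member gene was apart in CR, against 0.417% of all probes with HS above and 0.0435% with HS below, or in LW, against 0.683% and 0.0973%. The largest rise within F1 was that of PSMB2, at 0.57 ± 0.10 (SE), adjusted p = 0.000211, followed by PSMC5 at 0.55 ± 0.17 (SE), adjusted p = 0.0133 and PSMA5 at 0.50 ± 0.11 (SE), adjusted p = 0.00121. PSMA5 was at -0.03 ± 0.12 in CR and 0.04 ± 0.11 in LW.

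**Figure D3:**
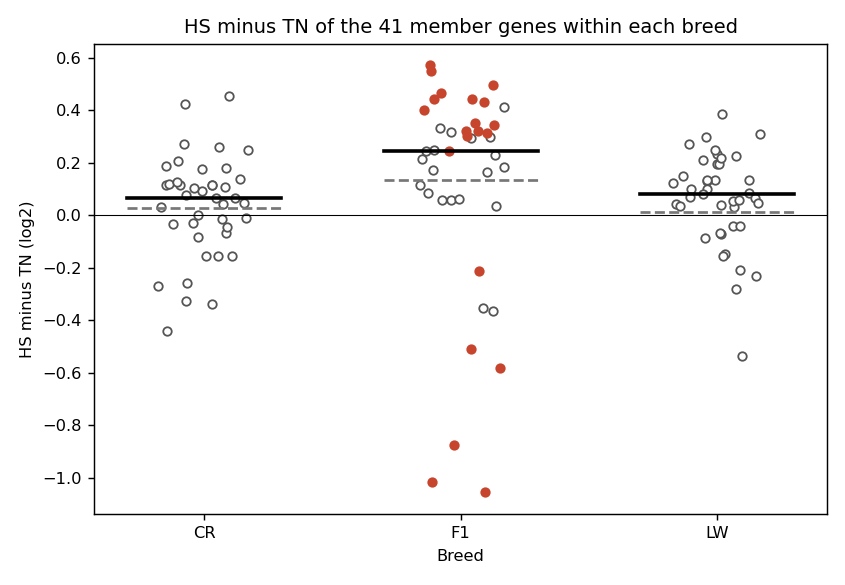
HS minus TN (log2) of the 41 member genes within CR, F1 and LW pigs, 1 point a gene on its brightest probe; filled points passed the threshold, the black line is the median of the genes and the dashed line that of all probes. Filled points stand in F1 alone, with medians of 0.07 in CR, 0.25 in F1 and 0.08 in LW.

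Averaged over the genes of the core, the level per pig was 9.98 ± 0.09 (SD, n = 6) in F1 TN and 10.25 ± 0.05 (SD, n = 6) in F1 HS, without overlap. It was 10.12 ± 0.06 (SD, n = 5) in CR TN and 10.21 ± 0.15 (SD, n = 6) in CR HS, and 10.05 ± 0.10 (SD, n = 6) in LW TN and 10.16 ± 0.05 (SD, n = 6) in LW HS. Within F1, the mean of the cap genes differed by less, at 10.05 ± 0.22 (SD, n = 6) in F1 TN and 10.12 ± 0.04 (SD, n = 6) in F1 HS. The cap mean includes PSMD3, at -1.01 within F1, whose probe may not read the messenger RNA. How far the smaller difference of the cap rests on that probe was not tested. The cap mean ran from 9.99 to 10.11 in CR TN and from 9.85 to 10.25 in CR HS. In LW it ran from 9.98 to 10.28 in TN and from 9.98 to 10.26 in HS. These means hold genes that went opposite ways and are given as a description.

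Breed itself moved no member past the threshold. Between CR and LW pigs 0 of 101 member probes were called, against 1.08% of all probes, and 5 had an unadjusted p under 0.05. The closest was a PSMD9 probe, at -0.39 ± 0.14 with an adjusted p of 0.234, followed by PSMB3 at 0.34 ± 0.13 with 0.261. These genes were picked after their values were seen. F1 pigs differed from CR and from LW pigs on 0 member probes (0.184% and 0.0256% of all probes), with 1 and 0 probes at an unadjusted p under 0.05, and from the mid-parent on 0 (0.0717% of all probes).

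For 8 genes, probes of the same gene had estimates of opposite sign over breeds. For 4 of them, PSMA5, PSMB4, PSMC2 and PSMG1, probes were called in opposite directions over breeds or within F1. PSMB2 was called on its bright probe alone, and PSMD6, PSMD9 and PSMD14 had no call over breeds. The bright PSMA5 probe A_72_P376623 was higher in HS within F1, at 0.50 ± 0.11 (SE), adjusted p = 0.00121, while the dim probe O13987 was lower, at -1.29 ± 0.23 (SE), adjusted p = 0.000214. Pigs of F1 TN lay at 6.76, 7.07, 7.24, 7.49, 7.58 and 8.62 on O13987 and those of F1 HS at 5.80, 5.93, 6.11, 6.14, 6.46 and 6.57. The r between these probes over the 35 pigs was -0.58. For PSMC2, A_72_P066301 was at 0.27 ± 0.08 (SE), adjusted p = 0.0133 over breeds and the dim O14037 at -0.44 ± 0.14 (SE), adjusted p = 0.0173, with an r of -0.39. On A_72_P066301 the F1 pigs lay at 7.54 to 8.40 (median 7.79) in TN and 7.91 to 8.40 (median 8.19) in HS, and on O14037 at 5.93 to 7.47 (median 6.40) in TN and 5.05 to 6.24 (median 6.02) in HS.

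The dimmest of 12 PSMB4 probes, O14313, was called lower within F1 at -0.32 ± 0.09 (SE), adjusted p = 0.00903, where 10 of the others were called higher. The dim PSMB2 probe O10027 was at -0.10 ± 0.07, with an r of -0.44 to the bright one. The PSMG1 probes had an r of 0.00 and were both called within F1, the brighter at -0.21 and the other at 0.39. With the probes of a gene averaged, PSMA5 was called lower over breeds at -0.21 (adjusted p = 0.0183, limma over genes), PSMC2 was at -0.08 and PSMG1 at 0.03. The direction given for these 3 genes therefore rests on the choice of probe. The letters of the dim probes O13987 and O14037, printed below, look like the reverse complement of coding sequence. If so, these probes do not read the messenger RNA, and the lower PSMA5 value averaged over probes does not stand for it. No transcript was aligned to settle this.

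The probes on which the 5 genes called lower over breeds rest are shown, with that of PSMC3, which was lower within F1. Both probes of PSMA5, PSMC2 and PSMG1 are given because they went opposite ways, and 2 PSMC6 probes for the wide spread of that gene. Each is printed whole, 5′ to 3′, as the scanner files give it.
PSMA5 A_72_P376623, higher within F1: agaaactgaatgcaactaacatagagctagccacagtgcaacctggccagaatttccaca
PSMA5 O13987, lower within F1: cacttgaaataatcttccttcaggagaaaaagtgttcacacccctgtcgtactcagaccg
PSMC2 A_72_P066301, higher: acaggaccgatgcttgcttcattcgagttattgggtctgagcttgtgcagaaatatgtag
PSMC2 O14037, lower: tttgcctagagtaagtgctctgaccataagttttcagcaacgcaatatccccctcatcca
PSMD3 O11744, lower: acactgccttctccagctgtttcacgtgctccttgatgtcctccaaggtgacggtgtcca
PSMC3 O14545, lower within F1: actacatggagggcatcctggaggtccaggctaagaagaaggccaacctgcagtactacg
PSMD4 A_72_P186381, lower: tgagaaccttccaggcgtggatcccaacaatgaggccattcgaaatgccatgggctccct
PSMG1 A_72_P190616, lower: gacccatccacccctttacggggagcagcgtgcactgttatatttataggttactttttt
PSMG1 O13433, higher within F1: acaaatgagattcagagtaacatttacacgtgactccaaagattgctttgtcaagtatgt
PSME4 A_72_P306533, lower: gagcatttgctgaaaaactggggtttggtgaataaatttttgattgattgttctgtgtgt
PSMF1 O10653, lower: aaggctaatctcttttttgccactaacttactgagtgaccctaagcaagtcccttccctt
PSMC6 A_72_P233572: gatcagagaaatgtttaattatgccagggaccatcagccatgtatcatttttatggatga
PSMC6 O9672: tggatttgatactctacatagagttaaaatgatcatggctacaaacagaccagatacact
No transcript or genome sequence was used here, so neither the place of a probe in its transcript nor the strand that it reads was assigned. Whether the probes that ran against the rest of their gene read the messenger RNA was not tested, and the same holds for PSMD3, PSME4 and PSMF1, whose single probe had a mean level of 7.39, 8.40 and 6.70. The letters of PSMA5 O13987, PSMC2 O14037 and PSMD3 O11744 look like the reverse complement of coding sequence.

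**Figure D4:**
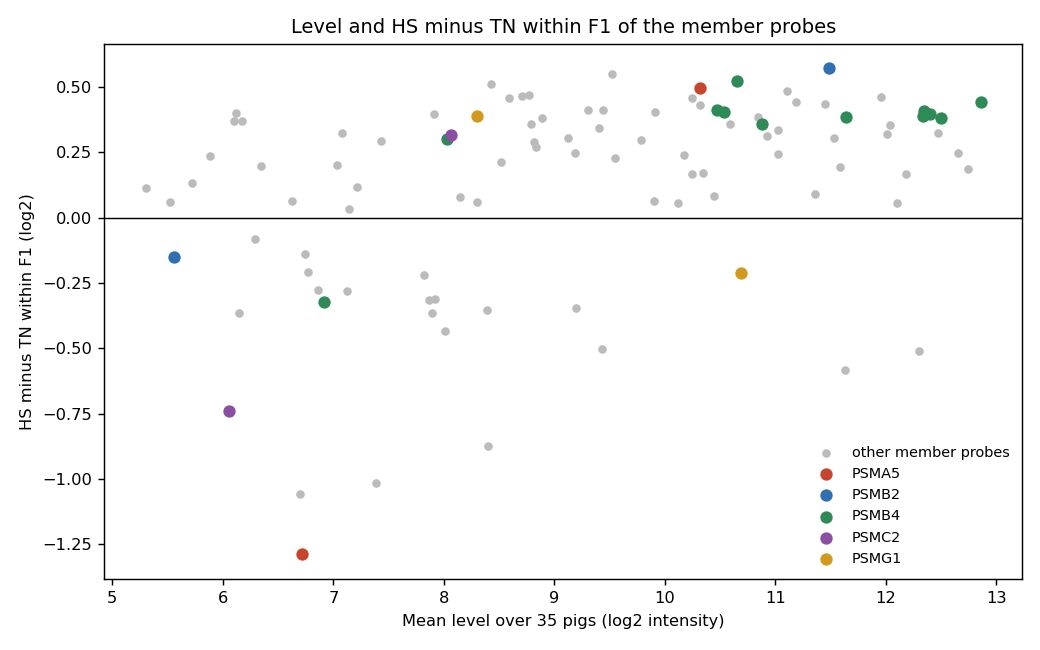
HS minus TN within F1 (log2) against the mean level over 35 pigs (log2 intensity) of 101 member probes; coloured points are the 4 genes with probes called in opposite directions (PSMA5, PSMB4, PSMC2 and PSMG1) and PSMB2, whose dim probe was not called. The probes of PSMA5, PSMB2, PSMB4 and PSMC2 below 0 are the dim ones, at levels of 5.56 to 6.91.

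Some member probes had the same 60 letters as a probe under another name, which shows the repeatability of the values. The probe of PSMG4 and its 2 copies were at 0.30, 0.31 and 0.32 over breeds, and all were called. The PSME1 probe and its copy were both at 0.22, and those of PSMB7 at 0.24 and 0.26. The PSMB5 probe and its 3 copies were at 0.15, 0.10, 0.14 and 0.14 and none was called, with r of 0.79 to 0.90 between the member and the copies over the 35 pigs. PSMD4 probe A_72_P626952 and its copy were at -0.22 and -0.27, and neither was called.

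In an additive model with breed, climate and the mean of the erythroid list, a choice made after the data were seen, 6 of 41 genes had a positive slope on that mean at an adjusted p under 0.05 (14.6%) and 7 a negative one (17.1%), and the other 28 had none past the threshold. Over all probes the shares were 15.5% and 22.3%, so members with such a slope were no more frequent than on the array. The positive slopes included PSME4 at 0.66 log2 units per unit of the list mean, PSMD4 at 0.47, PSMF1 at 0.42, PSMD3 at 0.41 and PSMC3 at 0.38. The negative ones included PSME1 at -0.26, PSME2 at -0.24 and PSMB2 at -0.22. The slope of PSMC6 was 0.55 and missed the threshold (adjusted p = 0.0594).

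With that mean as a covariate, 0 of 101 member probes and 1 of 39072 probes were called for HS minus TN, while 29 member probes had an unadjusted p under 0.05 (16.9% over all probes). The 17 genes called higher kept their sign, with a median of 0.17 in place of 0.22 and a range of 0.03 to 0.38. The 5 genes called lower kept theirs as well, with a median of -0.10 in place of -0.47. PSMD4 moved from -0.30 to -0.01 and PSME4 from -0.50 to -0.10. PSMB3 was at 0.38, PSMD1 at 0.30, PSMC2 at 0.32 and PSMB7 at 0.23, close to their values without the covariate, whereas PSME1 moved from 0.22 to 0.07 and PSME2 from 0.18 to 0.03. Climate and the erythroid mean moved together in these pigs, so the covariate also removes part of the climate difference.

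**Figure D5:**
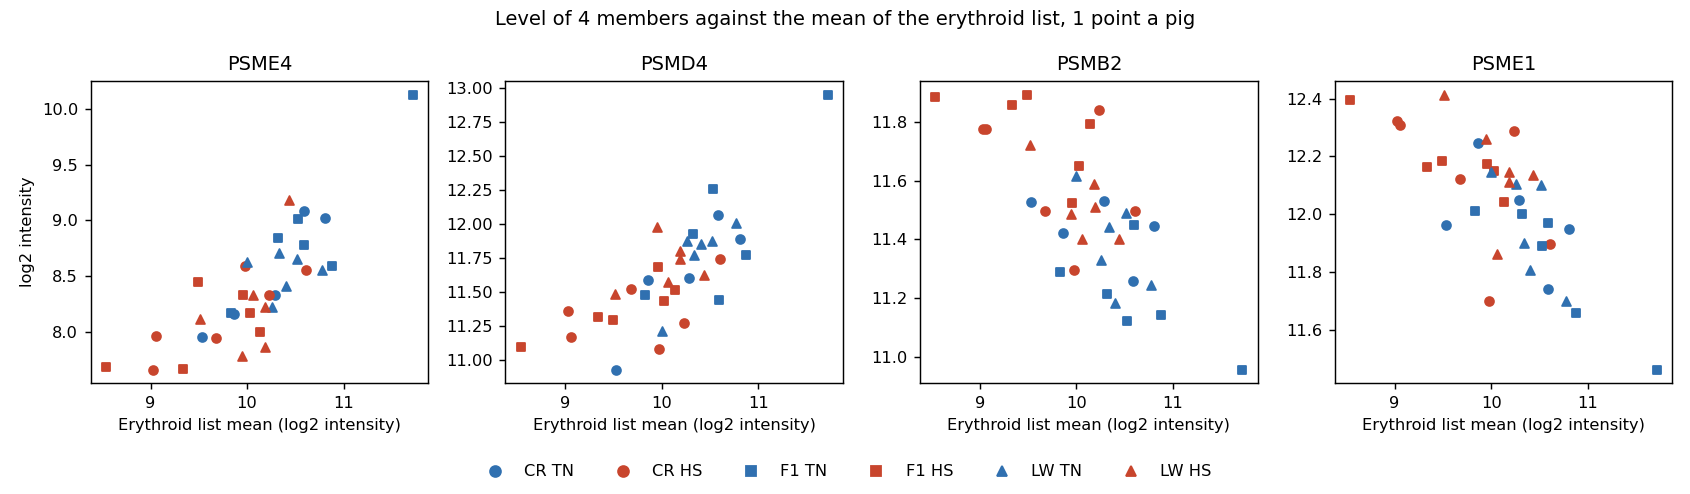
Level (log2 intensity) of PSME4, PSMD4, PSMB2 and PSME1 against the mean of the erythroid list (log2 intensity), 1 point a pig, by breed (shape) and climate (TN blue, HS red). PSME4 and PSMD4 are higher and PSMB2 and PSME1 lower in pigs with a high erythroid mean, and 1 F1 TN pig at 11.72 stands apart from the others.

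Arrays lay on 5 slides. Within a slide the median difference of the 41 genes was -0.02 on slide 1, 0.11 on slide 2, 0.15 on slide 3 and 0.15 on slide 4, against 0.01, 0.06, 0.04 and 0.08 for all probes. On slide 5 breed and climate cannot be told apart. On slide 1, which held 4 TN and 4 HS pigs, the genes were therefore not above the rest of the array.

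Of 29 measured genes that work with the proteasome, 10 were called higher (34.5%) and 2 lower (6.90%) in HS over breeds, against 20.1% and 14.7% of all probes. Within F1, 8 were called higher (27.6%) and 5 lower (17.2%), against 20.8% and 17.9%. These genes were counted on their brightest probe. Over breeds, with genes averaged over their probes, the shares of the whole array were 24.4% higher and 16.5% lower. The inducible catalytic subunits PSMB9 and PSMB10 were higher, at 0.24 and 0.30, and PSMB8 was at 0.18 and not called. VCP, the segregase that hands substrates to the proteasome, was at 0.29 (adjusted p = 0.00456), and the shuttle factor RAD23B at 0.16. NFE2L1, the transcription factor that drives proteasome genes when the protease is short, was at 0.38 (adjusted p = 0.00197), and NFE2L2, which drives antioxidant genes, was at -0.43 (adjusted p = 0.00193). UBB, a polyubiquitin gene, was lower at -0.19 (adjusted p = 0.0198), and the ubiquitin-activating enzyme UBA1 higher at 0.21. USP14, a deubiquitinase of the cap, was called lower within F1 at -1.13 (adjusted p = 0.00347) and not over breeds, at -0.41. With the erythroid mean as a covariate, the values over breeds were -0.17 for PSMB8, 0.01 for PSMB9 and 0.12 for PSMB10. They were 0.21 for VCP, 0.18 for RAD23B, 0.29 for NFE2L1, -0.22 for NFE2L2, -0.09 for UBB, 0.04 for UBA1 and 0.07 for USP14. The strand that these probes read was not assigned.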

How the data were processed

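RNA of whole blood from 35 pigs was hybridised to custom porcine Agilent arrays with probes of 60 bases, 1 pig an array. The authors read the scans with Agilent Feature Extraction 10.10.1.1 (submitters' processing notes) and deposited the scanner files, with the raw median and processed intensity of each spot. They also deposited a table of log2 values, made by quantile normalisation of the median intensity and a filter on probes whose rule is not given in the sources used here. That table gave the main values. Recomputed values correlated with it at r = 0.99997, and no pair of arrays was alike enough to be a single library (highest r 0.992). Groups came from the sample titles. Replicates are separate pigs, numbered in the order of the records.

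Differences were estimated with limma 3.58.1 in R 4.3.3, with breed and climate as additive terms, or with 6 group means for effects within breeds and the interaction. Tests were two-sided, adjusted by the Benjamini-Hochberg method over 39072 probes. The fit was tested on simulated data with independent noise for each probe and pig. Such data cannot show how pens, litters or days of slaughter bear on the calls. Members and lists were chosen with earlier results of these data known. Values are given for the 3 genes of each role with the largest difference, the 3 catalytic subunits, genes called between breeds, and genes whose probes were called in opposite directions. Alternatives were other normalisations (normexp with an offset of 50, the 75th percentile), other filters (well above background on a share of 0.5 of the arrays of a group, or none), gene means (8601 genes), slide as a block, array weights, an erythroid covariate, and leaving out a breed or an array. No counts exist for arrays, so their number limits the precision. Promoters and protein sequences were not analysed here.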

Additional observations from a re-analysis of the deposited data

Results flagged for a closer look

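Over 29 values (25 genes and 4 means by role) in 6 groups, 174 sets of pigs were examined for a pig whose gap to its nearest neighbour was a large share of the range of its group. Chance alone marks about 1 set in 20, and 9 were marked. In F1 TN, 1 pig was high for PSMB3 (9.59, next 9.11) and 1 for PSMC2 (8.40, next 7.81), and 1 was low for PSMD11 (11.82, next 12.13). For PSMC6, 1 F1 HS pig was low at 7.42 (next 8.06) and 1 LW HS pig high at 9.63 (next 8.19). In LW TN, 1 pig was low for PSMD4 (11.21, next 11.77) and 1 high for PSMB5 (7.71, next 7.28). In CR HS, 1 pig was low for PSMB5 (7.02, next 7.52), and in CR TN 1 was low for PSMB6 (12.68, next 12.83). No named gene had all HS pigs of one breed above and all of another below the TN mean of their breed.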

How the results depend on the processing

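Over breeds, 43 member probes were higher and 7 lower. With the erythroid mean as a covariate and without F1 pigs, 0 were higher and 0 lower, as were 0 genes (29 and 21 of 101 probes had an unadjusted p under 0.05). Without CR pigs 4 probes and 3 genes were lower. Without LW pigs 11 genes were higher. With the 75th percentile or array weights 3 genes were lower in place of 5. The median of the genes was 0.16, and -0.0155 within slide 1. Within F1, the covariate left 2 probes and 2 genes higher, and 1 probe and 0 genes lower. Array weights called 3 probes within LW. Gene means turned PSMA5 to -0.21, PSMC2 to -0.0848 and PSMG1 to 0.0284.

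Leaving out 1 array at a time gave 40 to 53 probes higher and 5 to 7 lower over breeds, 16 to 21 genes higher and 3 to 5 lower, and medians of 0.14 to 0.18. The count of 3 arose without replicate 2 or 4 of CR TN, 3 of CR HS, 2 or 4 of F1 TN, or 2 or 6 of F1 HS, and the calls lost were those of PSMD4 and PSMG1. Within F1 it gave 32 to 46 probes and 11 to 18 genes higher, and 7 to 11 probes and 4 to 6 genes lower. Within CR and LW, for breeds and for the interaction it gave 0. The cause of these changes was not tested. No paired analysis was possible because the replicate numbers follow the order of the records and the labels name neither litter nor pen.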
